A study of Homo sapiens with 6 samples.

Results

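Phosphoinositides are membrane lipids that carry phosphate groups on an inositol ring, and kinases and phosphatases convert one form into another to give each membrane its own lipid label. PI(4,5)P2 marks the plasma membrane, where it anchors actin regulators and endocytic adaptors. PI4P is its main precursor and marks the Golgi, and PI3P and PI(3,5)P2 mark endosomes and lysosomes. OCRL removes the 5-phosphate from PI(4,5)P2 on endosomes and at the plasma membrane. Mutation of OCRL causes Lowe syndrome, in which the kidney proximal tubule fails to reabsorb protein and solutes. The genes described here encode the other enzymes of this network: phosphoinositide kinases, 3- and 4-phosphatases, and the phospholipases C that cleave PI(4,5)P2.

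The enzymes form a listed set of 39 genes, of which 36 had a probe set under a single gene symbol, out of 11963 genes so measured. PI4K2B, PIK3CA and PIK3R2 were not analysed here. Each gene was represented by its probe set with the highest mean over the arrays, and its other probe sets served as a check. The genes were grouped by whether the enzyme makes PI(4,5)P2 (6 measured), makes the precursor PI4P (3) or removes PI4P as a 4-phosphatase (1). The other groups consume PI(4,5)P2, regulatory subunits included (12), or act in the 3-phosphate branch, neither making nor consuming PI(4,5)P2 (14).

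Expression was compared in HK2, a line of immortalised epithelial cells from the proximal tubule of human kidney, between 3 cultures given OCRL siRNA and 3 given a non-targeting siRNA (control). Both groups were transfected at 30% confluence with the same reagent and harvested after 96 h, and the labels call the cultures independent experiments. Each was read on 1 single-colour array, and their small number limits the precision. Values are log2 probe set intensities, and a difference is OCRL siRNA minus control siRNA with its moderated standard error (SE). A gene was called, and is said to have risen or fallen, at an adjusted p under 0.05 by limma.

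OCRL was lower on every OCRL siRNA array. Of its 2 probe sets, the brighter stood at 9.49, 9.48 and 9.51 in control and 7.52, 7.49 and 7.40 in OCRL siRNA cells, which left 24.6% of the control level (adjusted p = 1.24e-05, limma). The dimmer stood at 7.52, 7.73 and 7.66 and at 6.42, 6.77 and 6.70, which left 49.7% (difference -1.01, adjusted p = 7.64e-04, limma), and the mean of both gave -1.51. An exact permutation test (two-sided) gave p = 0.10 for each, the smallest possible with 3 arrays against 3. Markers of the kidney epithelium were present, among them KRT18, PAX8 and CDH6. Of 12 measured markers of this epithelium and the proximal tubule, 4 were dim, under the lower quartile of probe sets on every array. These were the endocytic receptor LRP2, AQP1, ANPEP and CDH1, and CUBN and SLC34A1 were at mean percentiles of only 26.7 and 28.9. The mean level of these 12 markers was 8.38 to 8.46 on the control arrays and 8.16 to 8.23 on the OCRL siRNA arrays, with 4 lower and 1 higher. The 4 lower were CDH6 (difference -1.04), EPCAM (-0.805), KRT8 (-0.38) and PAX8 (-0.29). The 1 higher was the dim ANPEP (0.56). The mean of 7 leukocyte markers was 5.38 to 5.52 and 5.43 to 5.45, with 2 below the lower quartile on every array, 0 called by limma and 0 at an unadjusted p under 0.05. Among markers of endothelium, fibroblasts and smooth muscle, other nephron segments and neurons, MYH11 and SYT1 were lower and SNAP25 was higher. The part of these shifts in the results on the enzyme genes was not tested. RNA came from whole cultures, so a change in the share of cells and a change in RNA per cell cannot be told apart.

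Of the 36 enzyme genes, 8 rose and 6 fell by limma, and 22 did not pass. The 14 called are 38.9% of the set, and over all 11963 genes 26.0% were called, 15.5% higher and 10.5% lower. Most differences were small. The absolute difference was under 0.2 in 24 of 36 genes (66.7%) and in 71.9% of all genes, and the median difference was 0.01 in the set and 0.001 over all genes. Only PIP4K2A, PLCB1 and PIKFYVE were called with at least 1.5-fold, 8.33% of the set beside 4.20% of all genes. The arrays of the groups did not overlap in 22 of the 36 genes (61.1%), beside 44.9% of all genes. Dim on every array were 1 of the 36 genes and 2071 of all 11963, so the set was brighter than all genes. The part of brightness in these shares was not tested. The rises depended on scaling more than the falls. After median centring, which sets the medians of the arrays equal, 4 genes were higher and 7 lower, and over all genes the split moved from 1854 higher and 1251 lower to 1437 and 1770.

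**Figure D1:**
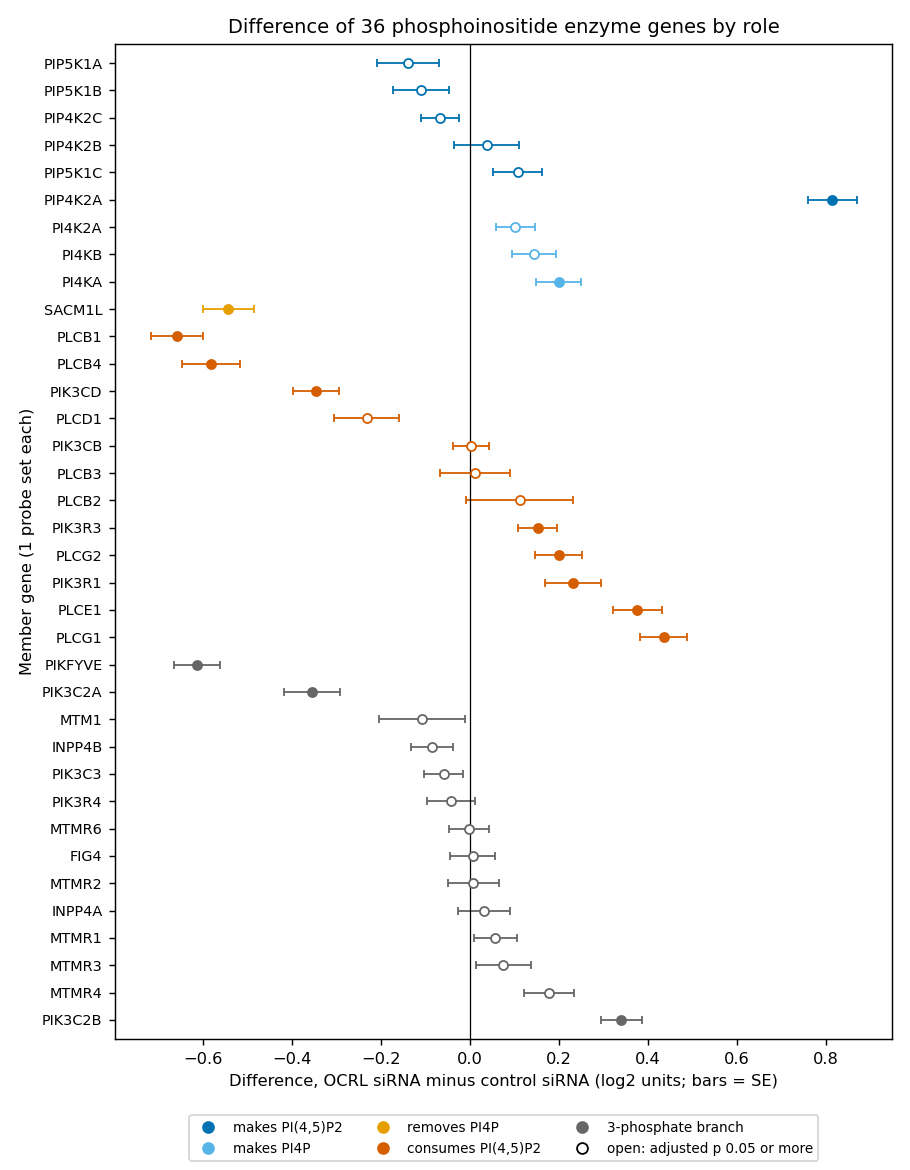
Difference in log2 intensity between OCRL siRNA and control siRNA cells (horizontal axis; bars are the moderated SE) for each of the 36 measured enzyme genes, coloured by role, with filled points for genes called by limma. PIP4K2A at 0.81 stands alone among the genes that make PI(4,5)P2, while genes that consume it lie on both sides of 0, from PLCB1 at -0.66 to PLCG1 at 0.43.

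Promoter sequences are shown for PIP4K2A, the gene that rose most, and for PIKFYVE, which had one of the largest falls, from the RefSeq promoter table (GRCh38.p14). Each runs 5′ to 3′ on the strand of the gene, from 250 bases before its start to 50 bases after it. Capitals mark GGGCGG, the GC box bound by SP factors, on either strand, and neighbouring matches can overlap. The windows are chr10:22714529-22714828 on the minus strand for PIP4K2A (the outermost of 2 listed starts) and chr2:208266005-208266304 on the plus strand for PIKFYVE.
PIP4K2A: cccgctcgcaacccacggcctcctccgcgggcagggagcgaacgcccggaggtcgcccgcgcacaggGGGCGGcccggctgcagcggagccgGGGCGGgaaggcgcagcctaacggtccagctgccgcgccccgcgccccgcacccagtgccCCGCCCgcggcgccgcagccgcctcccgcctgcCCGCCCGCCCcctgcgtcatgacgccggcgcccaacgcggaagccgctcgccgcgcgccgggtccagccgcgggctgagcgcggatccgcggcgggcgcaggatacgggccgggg
PIKFYVE: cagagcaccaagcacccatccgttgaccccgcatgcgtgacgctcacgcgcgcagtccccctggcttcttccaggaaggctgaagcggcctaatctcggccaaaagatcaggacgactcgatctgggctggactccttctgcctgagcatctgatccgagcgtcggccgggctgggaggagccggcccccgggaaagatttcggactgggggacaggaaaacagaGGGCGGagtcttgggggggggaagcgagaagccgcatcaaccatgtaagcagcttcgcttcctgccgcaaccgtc
The PIP4K2A window held 5 GC boxes in a sequence of 82.7% G and C, and the PIKFYVE window 1 GC box. GGGCGG occurred in 36 of 56 windows of the 31 measured enzyme genes in the table (64.3%) and in 45.0% of all 35116 windows. The windows of the enzyme genes had a median of 63.5% G and C, against 58.7% over all windows. CCAAT, the box bound by NF-Y, was in neither printed window and occurred in 42.9% of the windows of the enzyme genes and in 34.6% of all. The E-box CACGTG, the core of the element through which TFEB binds lysosomal genes, occurred in 5 of the 56 windows (8.9%) and in 7.3% of all. Those 5 windows belonged to INPP4B, MTM1, PI4KA, PIP4K2C and PIP5K1A. These matches describe letters in the windows and not binding.

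Among the 6 genes whose products make PI(4,5)P2, 1 rose, 0 fell and 5 did not pass, beside 26.0% of all 11963 genes called. PIP4K2A encodes a type II kinase, which phosphorylates PI5P on the 4-position and thereby also lowers PI5P. It was at 10.24, 10.17 and 10.17 in control and 11.06, 11.05 and 10.91 in OCRL siRNA cells. The lowest OCRL siRNA array thus lay well above the highest control array. The gene rose 1.76-fold (difference 0.81, SE 0.055, adjusted p = 1.63e-04). Its second probe set gave nearly the same size, from 7.43, 7.51 and 7.55 to 8.25, 8.15 and 8.42 (difference 0.78, SE 0.078, adjusted p = 7.32e-04). PIP4K2A was the largest difference of the set in either direction, and its call held in all 15 alternative settings.

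The other type II kinases did not pass by their brightest probe sets. PIP4K2B was at 7.74 ± 0.13 (mean ± SD, n = 3) in control and 7.78 ± 0.05 in OCRL siRNA cells (adjusted p = 0.761, limma). Its second probe set was called higher, from 7.36 to 7.58 (difference 0.23, adjusted p = 0.014, limma), so the probe sets of PIP4K2B differed in call. PIP4K2C was at 10.02 ± 0.04 and 9.95 ± 0.01 (difference -0.07, SE 0.042, adjusted p = 0.321, limma).

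The type I kinases make the bulk of PI(4,5)P2 from PI4P. By their brightest probe sets none of the 3 was called by limma or had an unadjusted p under 0.05. PIP5K1A was at 10.36 ± 0.05 and 10.23 ± 0.12 (difference -0.14, adjusted p = 0.204, limma). Its OCRL siRNA arrays, at 10.11, 10.35 and 10.21, straddled the lowest control value of 10.31. Both dimmer probe sets of PIP5K1A were lower on every OCRL siRNA array, and one of them was called (difference -0.23, SE 0.066, adjusted p = 0.0492, limma). The mean of the 3 probe sets of PIP5K1A gave -0.17 and was called lower (adjusted p = 0.0259, limma). The names of all 3 end in _s_at or _x_at, which marks probes that can match more than one transcript. PIP5K1C was at 7.30 ± 0.08 in control cells and differed by 0.11 (SE 0.056, adjusted p = 0.232, limma). PIP5K1B was at 4.18 ± 0.10 and 4.07 ± 0.05 (adjusted p = 0.267, limma) and was the 1 gene of the set below the lower quartile of probe sets on every array, where differences are compressed.

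Among the enzymes of PI4P, the phosphatase fell and 1 of 3 kinases was called higher. SACM1L, the 4-phosphatase of the endoplasmic reticulum and Golgi that hydrolyses PI4P, was at 10.91, 10.77 and 10.74 in control and 10.29, 10.25 and 10.25 in OCRL siRNA cells. Its groups were far apart and the OCRL siRNA arrays close together. SACM1L fell 1.46-fold (difference -0.54, SE 0.056, adjusted p = 8.45e-04), and the fall was called in all 15 settings, from -0.59 to -0.49. Of the kinases that make PI4P from phosphatidylinositol, all 3 measured had a difference above 0, but 1 was called. Their groups did not overlap, as was so for 44.9% of all genes. PI4KA, the kinase of the plasma membrane, was at 8.64, 8.56 and 8.65 and at 8.88, 8.80 and 8.77 (difference 0.20, SE 0.051, adjusted p = 0.0323). The PI4KA call was lost without any 1 of the 6 arrays (adjusted p = 0.0520 to 0.104) and after median centring (0.0771).

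PI4KB, the soluble Golgi kinase, was at 9.52 ± 0.02 and 9.66 ± 0.07 (difference 0.14, adjusted p = 0.0879, limma). PI4K2A, the membrane-bound kinase of the Golgi network and late endosomes, was at 9.77 ± 0.02 and 9.87 ± 0.04 (difference 0.10, adjusted p = 0.148, limma). Both passed once dim probe sets were left out (adjusted p of 0.0243 and 0.0451), a setting with fewer probe sets to adjust over. PI4KB also passed with trend and robust settings (0.0321). After median centring PI4KB was at a difference of 0.10 and PI4K2A at 0.06, and neither passed (adjusted p of 0.213 and 0.401, limma).

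**Figure D2:**
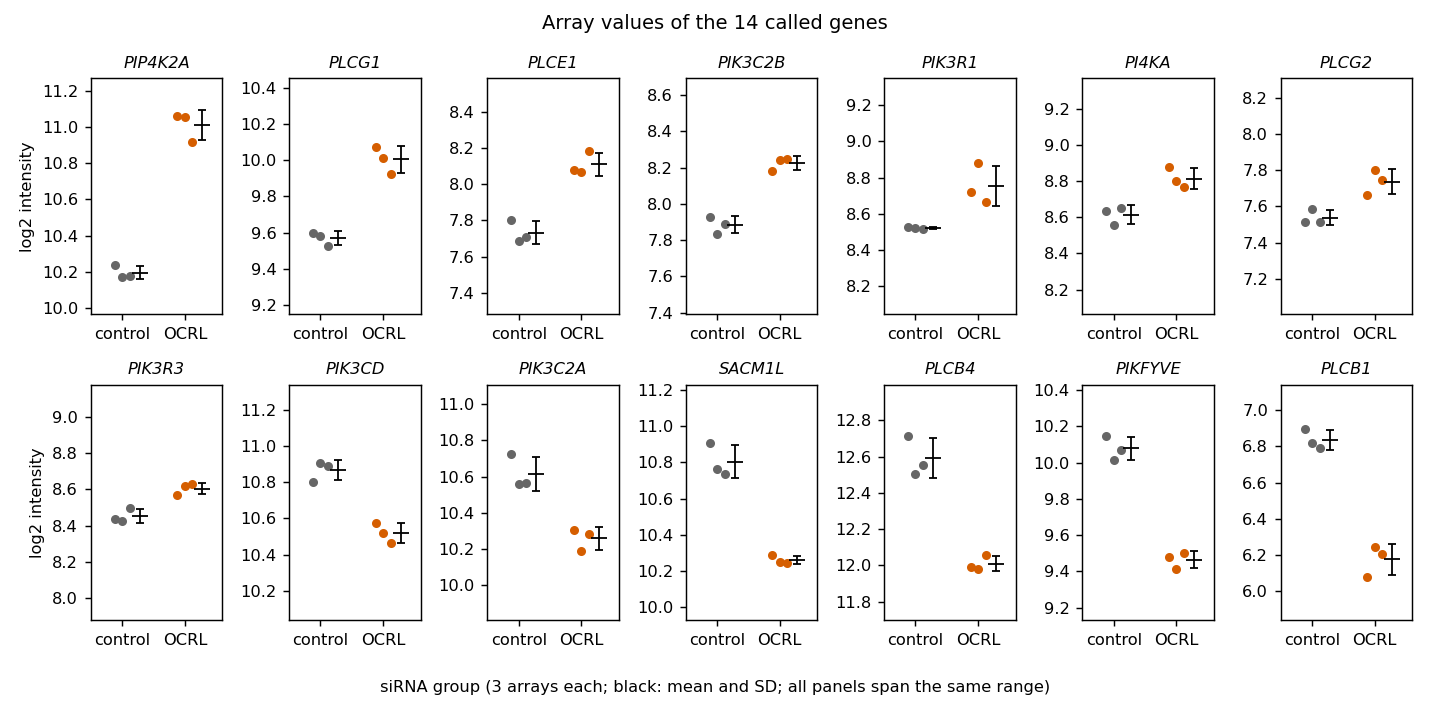
Log2 intensity on each array (points) with the mean and SD of 3 arrays (black) for the 14 called enzyme genes, ordered from the largest rise to the largest fall, each panel spanning the same range. In every panel the points of the groups are separate; the gap is wide for PIP4K2A and PLCB1 and narrow for PIK3R3 and PLCG2.

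Phospholipases C cleave PI(4,5)P2 into diacylglycerol and the calcium-releasing messenger IP3. Their genes went both ways, with 3 of 8 higher, 2 lower and 3 not passing, and a median difference of 0.06. Over all 11963 genes 15.5% were called higher and 10.5% lower. Within the beta type, which G proteins activate, PLCB1 and PLCB4 fell. PLCB1 was at 6.90, 6.82 and 6.79 in control and 6.08, 6.24 and 6.21 in OCRL siRNA cells. It fell 1.58-fold, the largest fall of the set (difference -0.66, SE 0.059, adjusted p = 4.60e-04). The other 2 probe sets of PLCB1 lay below the lower quartile on every array and were not called (differences 0.06 and -0.13), so the size of its fall rests on 1 probe set. The mean of the 3 gave -0.24 (adjusted p = 0.00703, limma).

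PLCB4 was at 12.71, 12.50 and 12.55 in control and 11.99, 11.98 and 12.06 in OCRL siRNA cells. Its groups were separated by far more than the spread within either. PLCB4 fell (difference -0.58, SE 0.064, adjusted p = 0.00108), and its second probe set fell by 0.55 (SE 0.042, adjusted p = 2.59e-04, limma). PLCB1 and PLCB4 are next to each other on chromosome 20, with 0 protein-coding genes between them in the RefSeq table. PLCB3 was at 7.94 ± 0.06 and 7.95 ± 0.14 (adjusted p = 0.935, limma). PLCB2, a form known from blood cells, was at 6.49 ± 0.25 in control cells and differed by 0.11 (SE 0.120, adjusted p = 0.572, limma), with control replicate 1 lower than the other arrays.

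The gamma type, which tyrosine kinase receptors activate, and PLCE1, which Ras and Rap GTPases activate, rose. PLCG1 was at 9.60, 9.58 and 9.53 in control and 10.07, 10.01 and 9.93 in OCRL siRNA cells. It rose 1.35-fold (difference 0.43, SE 0.053, adjusted p = 0.00163), while its second probe set differed by 0.20 without passing (adjusted p = 0.0998, limma). PLCE1 was at 7.80, 7.69 and 7.71 and at 8.08, 8.07 and 8.18. It rose (difference 0.38, SE 0.055, adjusted p = 0.00339), and a second probe set rose by 0.45 (SE 0.082, adjusted p = 0.0083, limma). Another probe set of PLCE1 lay below the lower quartile on every array and did not pass (difference -0.004, adjusted p = 0.983, limma). The mean of its probe sets gave 0.27 (adjusted p = 0.0144, limma). The calls of PLCG1 and PLCE1 held in all 15 settings.

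PLCG2 was at 7.51, 7.59 and 7.51 in control and 7.66, 7.80 and 7.75 in OCRL siRNA cells (difference 0.20, SE 0.052, adjusted p = 0.0345). Its call was lost without any 1 control array, without replicate 2 or 3 of the OCRL siRNA group (0.0555 to 0.107 over these), after quantile normalisation (0.0578) and after median centring (0.0751). PLCD1, of the calcium-sensitive delta type, was at 7.09 ± 0.07 and 6.86 ± 0.12 (difference -0.23, SE 0.072, adjusted p = 0.0608, limma). It was called lower in 5 settings, among them median centring (adjusted p = 0.0335) and without OCRL siRNA replicate 3 (0.0332).

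Class I PI3 kinases consume PI(4,5)P2 in the other direction, by phosphorylating it to PI(3,4,5)P3, the lipid that recruits AKT. Of the 4 genes measured, the catalytic subunit gene PIK3CD fell and the regulatory subunit genes PIK3R1 and PIK3R3 were called higher. With the phospholipase C genes they form the 12 genes of enzymes that consume PI(4,5)P2. Of these 12, 5 were called higher, 3 lower and 4 did not pass, beside 26.0% of all 11963 genes called. PIK3CD, best known from leukocytes, was at 10.80, 10.91 and 10.89 in control and 10.58, 10.52 and 10.47 in OCRL siRNA cells. It fell 1.27-fold (difference -0.35, SE 0.052, adjusted p = 0.00384) and was called in all 15 settings, although its dimmer probe set was not called (5.81 and 5.78, adjusted p = 0.872, limma) and the mean of both gave -0.19. Of the 7 leukocyte markers, 2 lay below the lower quartile on every array and the brightest, CSF1R, was at 6.74 and 6.70. Their part in the PIK3CD result was not tested. PIK3CB, the widely expressed catalytic subunit, was at 10.34 ± 0.02 and 10.34 ± 0.02, with a difference of 0.002 (SE 0.040, adjusted p = 0.981, limma).

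The probe sets of PIK3R1, which encodes the p85-alpha subunit and its shorter forms, went against each other. The brightest was at 8.53, 8.52 and 8.52 in control and 8.72, 8.88 and 8.66 in OCRL siRNA cells and was called higher (difference 0.23, SE 0.062, adjusted p = 0.0374). This call was lost in 9 of 15 settings, including the omission of any 1 array but OCRL siRNA replicate 3 (adjusted p = 0.0687 to 0.101), quantile normalisation (0.0638) and median centring (0.0577), and the direction turned in 2. The next was at 8.11, 8.17 and 8.17 and at 7.82, 7.91 and 7.81 and was called lower (difference -0.30, SE 0.048, adjusted p = 0.00473). The third lay below the lower quartile on every array and did not pass (difference 0.10, adjusted p = 0.414, limma). PIK3R1 was the 1 gene of the 23 with several probe sets in which these were called in both directions, so no direction can be given for the gene as a whole. It counts among the 8 higher genes by its brightest probe set.

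PIK3R3, the p55-gamma subunit, was at 8.43, 8.43 and 8.50 in control and 8.57, 8.62 and 8.63 in OCRL siRNA cells (difference 0.15, SE 0.044, adjusted p = 0.0485). Its call was lost in 11 of 15 settings, including each in which 1 of the 6 arrays was left out (adjusted p = 0.0722 to 0.148).

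**Figure D3:**
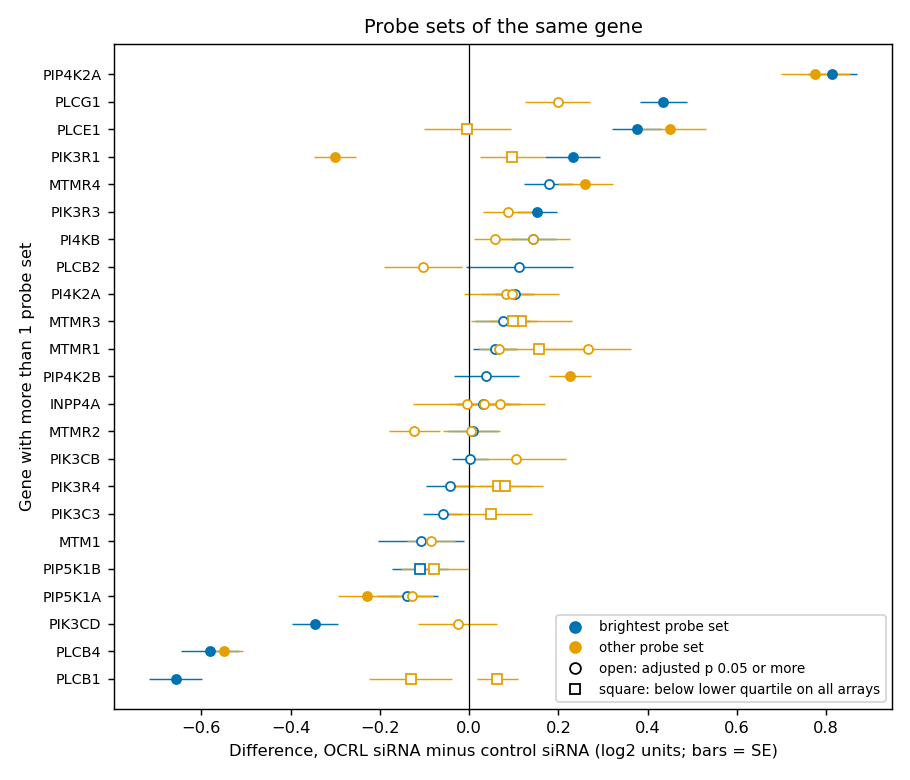
Difference in log2 intensity (horizontal axis; bars are the SE) for every probe set of the 23 enzyme genes with more than 1, with the brightest in blue, the others in orange, filled points called by limma and squares for probe sets below the lower quartile on all 6 arrays. The probe sets of PIP4K2A and PLCB4 coincide, whereas those of PIK3R1 lie at 0.23 and -0.30.

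Of the 14 genes in the 3-phosphate branch, 1 rose, 2 fell and 11 did not pass, beside 26.0% of all 11963 genes called. PIKFYVE encodes the kinase that turns PI3P into PI(3,5)P2 on late endosomes and lysosomes. It was at 10.15, 10.02 and 10.07 in control and 9.48, 9.41 and 9.50 in OCRL siRNA cells. Its groups were separated on every array, and it fell 1.53-fold (difference -0.61, SE 0.052, adjusted p = 3.92e-04). The fall was called in all 15 settings, from -0.66 to -0.58. FIG4, the phosphatase that removes the 5-phosphate from PI(3,5)P2 in the same complex as PIKFYVE, was at 8.73 ± 0.06 and 8.74 ± 0.04 (difference 0.006, SE 0.050, adjusted p = 0.951, limma).

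The class II PI3 kinases, which make PI3P and PI(3,4)P2, moved in opposite directions by nearly the same amount. PIK3C2A, a kinase of clathrin-coated pits and the base of the cilium, was at 10.72, 10.56 and 10.56 in control and 10.31, 10.19 and 10.29 in OCRL siRNA cells. It fell 1.28-fold (difference -0.36, SE 0.063, adjusted p = 0.00752). PIK3C2B was at 7.93, 7.84 and 7.89 and at 8.18, 8.24 and 8.25. It rose 1.27-fold (difference 0.34, SE 0.047, adjusted p = 0.00265). Each had 1 probe set, and both calls held in all 15 settings.

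The class III complex makes most endosomal PI3P, and neither of its genes in the set passed. Its catalytic subunit gene PIK3C3 was at 10.39 ± 0.03 and 10.33 ± 0.04 (adjusted p = 0.405, limma) and its regulatory subunit gene PIK3R4 at 10.37 ± 0.07 and 10.33 ± 0.05 (adjusted p = 0.628, limma). The myotubularins, 3-phosphatases that remove PI3P and PI(3,5)P2, gave 0 calls among 6 genes by limma and 1, MTMR4, at an unadjusted p under 0.05. Their differences ran from -0.11 in MTM1 to 0.18 in MTMR4. MTMR4, a phosphatase of endosomes, was at 8.81, 8.65 and 8.75 in control and 8.90, 8.96 and 8.89 in OCRL siRNA cells (SE 0.055, adjusted p = 0.0609). Its second probe set was called higher, at a difference of 0.26 (SE 0.062, adjusted p = 0.0242, limma), and the gene was called in 6 of 15 settings.

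MTMR1 (difference 0.06), MTMR2 (0.008), MTMR3 (0.08) and MTMR6 (-0.002) lay near 0 by their brightest probe sets. Other probe sets of MTMR1 differed by 0.07, by 0.27 (adjusted p = 0.0917, limma) and, in a dim one, by 0.16, and none was called. The mean of its probe sets gave 0.14 (adjusted p = 0.0593, limma). MTM1, the gene of X-linked myotubular myopathy, was at 7.63 ± 0.18 and 7.52 ± 0.09 (adjusted p = 0.495, limma). The 4-phosphatases of PI(3,4)P2 did not pass either, with differences of 0.03 in INPP4A (adjusted p = 0.752) and -0.09 in INPP4B (adjusted p = 0.264), both by limma.

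**Figure D4:**
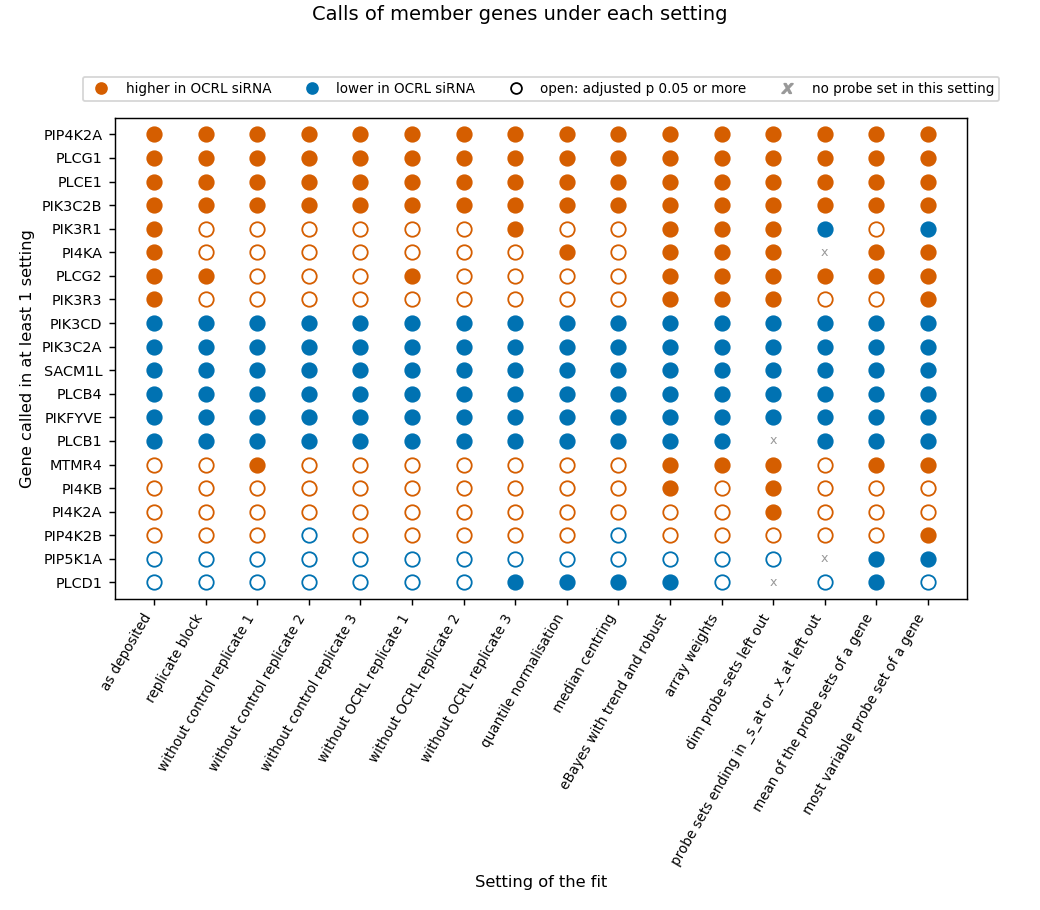
Direction and call of the 20 enzyme genes called in at least 1 setting (rows), in the fit on the deposited values and in 15 alternatives (columns), with filled points for adjusted p under 0.05. Of the 14 genes called on the deposited values, 10 are filled in every setting that measured them, and PIK3R1, PI4KA, PLCG2 and PIK3R3 are open in some.

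The rest of the pathway was read from 8 lists of genes outside the set. Their counts stand beside 26.0% of all 11963 genes called, 15.5% higher and 10.5% lower. Of 10 measured genes of inositol 5-phosphatases and related phosphatases, which differ in substrate and do not all act on PI(4,5)P2, 2 rose and 2 fell, with a median difference of -0.11 in a list that contains the targeted gene OCRL. SYNJ1, the synaptojanin that strips PI(4,5)P2 from endocytic vesicles, rose (difference 0.38, adjusted p = 0.00316), as did INPP5F (0.24), which encodes a phosphatase that acts mainly on PI4P. INPP5D, whose product SHIP1 acts mainly on PI(3,4,5)P3, fell (-0.32). INPP5B, a paralog that also strips the 5-phosphate, stood at 7.83 ± 0.06 and 7.82 ± 0.02 (adjusted p = 0.863, limma). Of 13 other phosphoinositide kinase, phosphatase and partner genes, UVRAG (0.32), a subunit of the class III complex, and MTMR11 (0.29) rose and MTMR9 (-0.36) fell. Of 4 other genes with a phospholipase C domain, PLCXD1 rose (0.34).

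Genes of phosphatidylinositol supply and transfer gave 3 rises and 0 falls among 15 by limma, with a median difference of 0.02. An unadjusted p under 0.05 was found in 6 of the 15 and in 4602 of all 11963 genes. The lipid transfer protein gene PITPNC1 rose 1.63-fold, from 7.70 ± 0.03 in control cells (difference 0.71, SE 0.043, adjusted p = 1.04e-04, limma). SEC14L1 (0.41) and EFR3A (0.16), a subunit of the complex that holds PI4KA at the plasma membrane, rose by less. The synthase gene CDIPT did not pass (-0.04).

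Downstream of phospholipase C, 3 of 26 genes of inositol phosphates, calcium release and diacylglycerol rose and 5 fell. The diacylglycerol-activated kinase gene PRKCA fell 1.95-fold, from 9.93 ± 0.07 to 8.96 ± 0.10 (difference -0.96, SE 0.066, adjusted p = 1.64e-04, limma). The diacylglycerol kinase gene DGKD (-0.49) and the inositol monophosphatase gene IMPA1 (-0.32) fell by limma. The IP3 receptor genes went both ways, with ITPR3 higher (0.32, adjusted p = 0.00817), ITPR2 lower (-0.54, adjusted p = 0.0184) and ITPR1 at -0.21 without passing (adjusted p = 0.133). Of 18 genes that act on or below PI(3,4,5)P3, 2 rose and 1 fell. The Rac activator gene TIAM1 fell (-0.73), and CYTH1 (0.22) and IRS2 (0.17) rose. AKT1 did not pass (-0.13, adjusted p = 0.0704).

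Over all genes 15.5% were called higher and 10.5% lower. Among 17 genes listed for binding of PI3P or PI(3,5)P2, not all of whose products bind these lipids, the median difference was 0.13. Of the 17, 8 had an unadjusted p under 0.05, beside 4602 of all 11963 genes. By limma 5 of the 17 rose and 0 fell. These were TPCN1 (0.48), a PI(3,5)P2-gated channel of lysosomes, ZFYVE26 (0.41), the sorting nexin gene SNX2 (0.39), PLEKHM1 (0.47) and MCOLN1 (0.27), the last also a PI(3,5)P2-gated channel. Among 19 genes of proteins that bind PI(4,5)P2, 3 rose and 5 fell. The largest falls were in MARCKSL1 (-0.45) and the clathrin adaptor gene PICALM (-0.43), and GSN (0.25) rose. The ezrin family of membrane-to-actin linkers went both ways, with RDX higher (0.20) and EZR (-0.19, adjusted p = 0.0191) and MSN (-0.17, adjusted p = 0.0325) lower by limma. The lists were chosen with earlier results of these data known. They are described by counts, medians and single genes, and no list was tested as a whole.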

How the data were processed

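Total RNA of HK2 cells was hybridised to single-colour Affymetrix arrays after biotin labelling, per the labels' protocols. The authors deposited log2 intensities, 1 per probe set, made with affy and RMA per the submitters' processing notes (version numbers are not given in the sources used here). RMA as usually run equalises the distribution of probe intensities before they are summarised, so a shift shared by most genes would be largely removed, and differences between dim probe sets are compressed. The deposited probe set values still differed in median, at 7.23 to 7.24 in control and 7.27 to 7.30 in OCRL siRNA cells. Of 22277 probe sets, 62 controls were left out and 22215 tested. GEO's platform annotation gave 1 symbol for 19064, several for 1043 (not named) and none for 2108 (unnamed here).

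The comparison used limma 3.58.1 (lmFit, eBayes, two-sided, R 4.3.3), group as the only term, and Benjamini-Hochberg adjusted p over the 22215 probe sets, called under 0.05. The fit was tested on simulated data with independent noise and few planted changes. These settings differ from the data, so the calls made here were not checked by it. Figures were drawn with matplotlib 3.10.9. Members and lists were chosen with earlier results of these data known. All members are named, called ones with every array, and up to 4 called genes of each list with the smallest p. MCOLN1, CDIPT, AKT1, ITPR1, ITPR2, EZR, MSN and the marker genes named were chosen after their values were seen. No 2 arrays were identical. Whether same-numbered arrays deviated together was checked by correlations of deviations from the group means. These were 0.142, 0.123 and -0.009 for numbers 1, 2 and 3, and -0.176 to 0.096 between different numbers. The labels do not say that a number marks a shared experiment, so the number was not treated as a pairing. Alternatives were a replicate block, leaving out each array, other scalings, eBayes settings, array weights, filters on probe sets and other choices of probe set per gene.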

Additional observations from a re-analysis of the deposited data

How the results depend on the processing

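OCRL was lower, and called, under every alternative that measured it. Without the _s_at and _x_at probe sets OCRL had none, and 31 of the 36 enzyme genes were measured, as with dim probe sets left out. The count of enzymes higher moved both ways. It fell from 8 to 5 with the replicate number as a replicate block, 5 after quantile normalisation and 4 after median centring. It was 5 without the _s_at and _x_at probe sets, 1 with at least 1.5-fold and 4 to 5 with any 1 array left out. With the mean of probe sets it was 7, with array weights 9 and with the most variable probe set 9. It reached 10 with trend and robust settings and 11 of 31 with dim probe sets left out. The count lower stayed at 5 to 8 except with at least 1.5-fold, where it was 2. The block cost PI4KA, PIK3R1 and PIK3R3 their calls (adjusted p = 0.0569, 0.0570 and 0.0796, limma). PIK3R1 reversed to -0.30 both without the _s_at and _x_at probe sets and with the most variable probe set.

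The other sign changes were in genes not called in the setting concerned. After median centring FIG4 was at -0.04, INPP4A at -0.01, MTMR2 at -0.04, PIK3CB at -0.04, PIP4K2B at -0.01 and PLCB3 at -0.03, and after quantile normalisation FIG4 was at -0.02, MTMR2 at 0, PIK3CB at -0.02 and PLCB3 at -0.01. Array weights put PIK3CB at 0. With the mean of probe sets MTMR2 was at -0.04 and PIK3R4 at 0.03, and with the most variable INPP4A at 0, MTMR2 at -0.12, PIK3C3 at 0.05 and PIK3R4 at 0.06. With 1 array left out FIG4 ranged from -0.02 to 0.03, INPP4A from -0.01 to 0.08, MTMR2 from -0.03 to 0.05, MTMR6 from -0.02 to 0.01, PIK3CB from -0.01 to 0.01, PIP4K2B from -0.01 to 0.11, PLCB2 from -0.03 to 0.19 and PLCB3 from -0.05 to 0.09. The causes were not tested.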
